A study of Mus musculus with 4 samples.

Results

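Livers of S/S and A/A mice that received no injection were compared by single-cell RNA sequencing, in 1 library of each genotype. The labels give the genotypes as S/S and A/A and do not spell the symbols out. Each library held the livers of 2 mice aged 2 months, pooled before capture, so there was no replicate of either genotype. Of 19176 barcodes kept over the 4 libraries of the series, 7196 belonged to this baseline pair, 2830 of them to A/A and 4366 to S/S. A barcode was kept with at least 300 detected genes and at most 20% mitochondrial UMIs, where a UMI is a molecular tag that counts 1 captured RNA molecule. Each kept barcode was then given to a cell type if it held enough UMIs of fixed marker genes, and raw UMIs were summed by type and library. All livers were perfused and digested with enzymes, non-parenchymal cells were enriched on a density gradient that also removes dead cells, and macrophages and live cells were enriched by flow cytometry, per the labels. These steps set part of the cell make-up. The remaining pair of libraries came from A/A and S/S mice killed 3 h after 500 ng of tumour necrosis factor (TNF). It shares no sample with the baseline pair and is quoted beside it.

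The liver sinusoids carry blood past resident macrophages (Kupffer cells), which take up old or damaged red cells. Heme oxygenase, encoded by Hmox1, then opens the heme ring, ferritin stores the released iron and ferroportin, encoded by Slc40a1, exports it. Hepatocytes secrete most plasma proteins, among them albumin, the haptoglobin that binds free hemoglobin, and the acute phase serum amyloids. Neutrophil granule proteins such as Ngp, Camp and Ltf are made while the cell matures in the marrow, and their mRNA is scarce in mature blood neutrophils.

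The deposited baseline matrices held 3230 A/A and 4983 S/S barcodes. Kept barcodes carried 20514857 and 29710749 UMIs in all, with medians of 4723.5 and 5507 UMIs and of 1514 and 1917.5 genes. A cell type was given to 2397 A/A barcodes (84.7%) and 3444 S/S barcodes (78.9%). These include 56 and 107 barcodes that passed both the T cell and the natural killer gate, kept as a class of their own. Barcodes that passed several gates in a combination that was not allowed, 187 (6.61%) and 343 (7.86%), were left out as possible doublets, and 246 (8.69%) and 579 (13.3%) passed none. The filter edge held more S/S barcodes: 56 A/A and 165 S/S barcodes had 250 to 299 genes, just outside it, and 82 and 226 had 300 to 349 genes, just inside. Both pools were of males by their RNA, with 1 Xist UMI in the A/A and 3 in the S/S library against 1562 and 1859 UMIs of Y-linked Ddx3y. The libraries had 2 barcode sequences in common. With 1 library per genotype no test was possible, and every interval below is an exact 95% binomial interval that covers counting error only.

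The cell make-up differed most in erythroid and endothelial barcodes. Erythroid barcodes, gated on red cell genes such as Alas2 and Slc4a1 and not on globin, made up 14 of 2830 kept barcodes (0.495%) in A/A and 256 of 4366 (5.86%) in S/S, an 11.9-fold higher share (6.94 to 22). Sinusoidal endothelial barcodes, gated on genes such as Stab2 and Clec4g, went the other way, with 273 (9.65%) in A/A and 26 (0.596%) in S/S, a share 16.2-fold higher in A/A (10.8 to 25.2). In the TNF pair the erythroid share was again higher in S/S, with 37 and 630 barcodes and a ratio of 19.9. The endothelial share there was 1.71-fold higher in A/A, from 826 and 413 barcodes.

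Myeloid types did not move as 1 block. Kupffer barcodes, which express Clec4f, Vsig4 and Timd4, were 276 (9.75%) in A/A and 201 in S/S (4.6%), a ratio of S/S over A/A of 0.472 (0.392 to 0.568). Macrophage barcodes with C1q genes that failed the Kupffer gate were 125 (4.42%) and 299 (6.85%), a ratio of 1.55 (1.25 to 1.93). Classical monocyte barcodes, with Ly6c2, Ccr2 and F13a1, were 26 (0.919%) and 146 (3.34%), a ratio of 3.64 (2.39 to 5.76). Nonclassical monocytes, with 30 and 29 barcodes, had an interval of the ratio that includes 1 (0.363 to 1.08). Neutrophils had 116 (4.10%) and 126 (2.89%) barcodes, and plasmacytoid dendritic cells, a lymphoid-shaped class known for interferon production, 152 (5.37%) and 169 (3.87%). Their ratios were 0.704 (0.543 to 0.914) and 0.721 (0.575 to 0.903).

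Lymphocyte shares were modestly higher in S/S. B cells made up 13.9% of A/A and 18.9% of S/S barcodes, a ratio of 1.36 (1.21 to 1.54), and T cells 13.2% and 16.5%, a ratio of 1.25 (1.10 to 1.42). Natural killer (NK) or type 1 innate lymphoid barcodes (76 and 155) and T cells with NK markers (56 and 107) had intervals that include 1. Hepatocyte barcodes were 415 (14.7%) and 283 (6.48%), a share 2.26-fold higher in A/A (1.94 to 2.64). Type 1, type 2 and mature dendritic cells and plasma cells had at most 41 barcodes in either library. Stellate cells had 5 and 2, basophils or mast cells 1 and 3, and no cholangiocyte or megakaryocyte barcode was found in either library. In the TNF pair the Kupffer ratio was 0.504 and that of C1q macrophages 3.31, while other ratios lay on the other side of 1 from baseline. These included hepatocytes (1.38), T cells (0.321), T cells with NK markers (0.279), NK or type 1 innate lymphoid cells (0.702), B cells (0.840), nonclassical monocytes (4.86), type 1 and mature dendritic cells (1.33 and 1.98) and plasma cells (0.521). The TNF intervals of B cells (0.671 to 1.05) and type 1 dendritic cells (0.863 to 2.07) include 1. So do the baseline intervals of type 1 dendritic cells (0.384 to 1.3) and plasma cells (0.525 to 2.24).

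**Figure D1:**
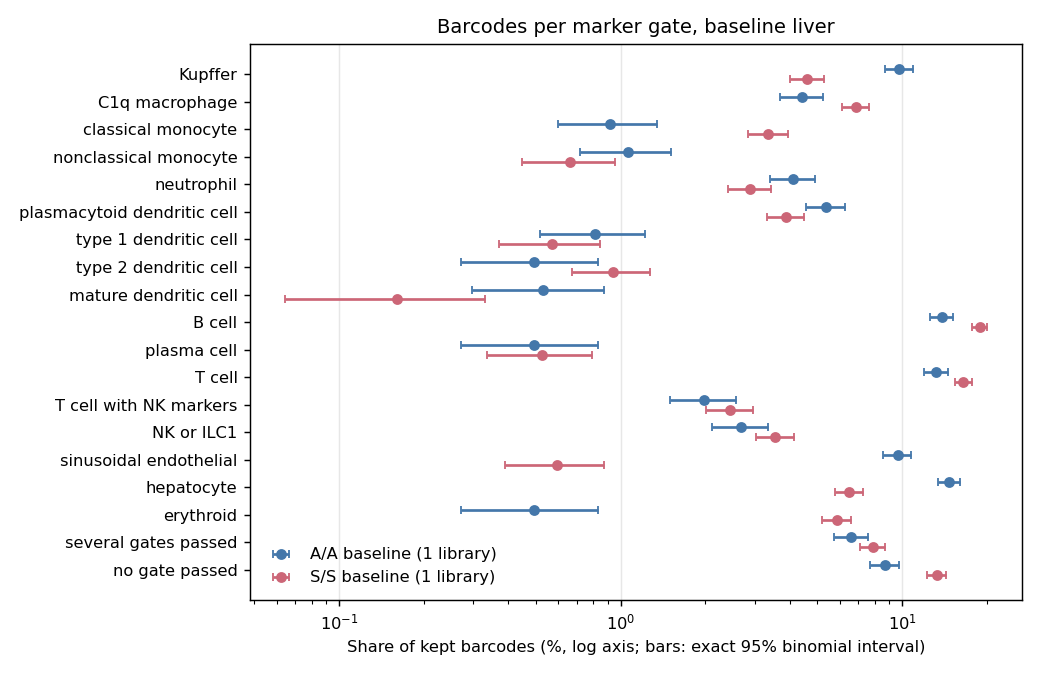
Share of kept barcodes by gated cell type in both baseline libraries, in percent, with exact 95% binomial intervals that cover counting error only. Erythroid barcodes stand at 0.495% for A/A and 5.86% for S/S, and sinusoidal endothelial barcodes at 9.65% and 0.596%.

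Depth within a type also differed. In 9 types with at least 50 barcodes in both libraries the sums could be compared gene by gene, and median UMIs per barcode were lower in S/S in all 9, from 16173 against 11746 in plasmacytoid dendritic cells to 1571 against 1134 in hepatocytes. Kupffer barcodes had medians of 2292.5 and 1638 UMIs and T cells of 12483.5 and 7561. Malat1, a long RNA retained in the nucleus, was low in Kupffer and hepatocyte barcodes, at 288 and 765 CPM in A/A and 2777 and 1264 CPM in S/S. It stood at 17450 and 13470 CPM in C1q macrophages. CPM here are UMIs scaled to a total of 1000000 in each type and library, with globin, Rn18s-rs5 and mitochondrial genes left out of the total.

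Globin RNA was far more abundant in the S/S library. Globin genes, which encode the subunits of hemoglobin, took 0.229% of UMIs in kept A/A barcodes (0.227 to 0.231) and 2.60% in S/S (2.59 to 2.60). In the TNF pair the shares were 0.347% and 4.19%. Within the 9 compared types, none of them erythroid, globin shares ran from 0.000699% to 0.0131% of UMIs in A/A and from 0.0568% to 1.48% in S/S, with no overlap. At least 1 globin UMI was found in 5.06% to 12.5% of A/A barcodes of a type and in 90.8% to 96.4% of S/S barcodes, although the S/S barcodes were shallower. The median S/S barcode held 2 globin UMIs in hepatocytes and 3 in the other types, against 0 in A/A. These values are not read as expression by the cells, and the part of free RNA in them was not tested.

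A few barcodes held much more. More than 10 globin UMIs were found in 1 A/A barcode of the 9 types, a T cell with 595, and in 1 to 20 S/S barcodes per type (0.794% to 3.87%). In Kupffer cells, 1 S/S barcode gave 42.7% of the 4009 UMIs of Hba-a1, an adult alpha globin gene, against 12 UMIs in A/A. The erythroid barcodes themselves had globin shares of 33.7% (A/A) and 43.4% (S/S). In them Hba-a1 gave 23488 and 349579 UMIs, Hbb-bt 14065 and 190426, and the nearly identical Hbb-bs 987 and 4591. How reads were divided between such copies is uncertain.

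Ribosomal RNA went the other way. Rn18s-rs5, a gene model that collects 18S ribosomal RNA, took 17.0% of UMIs in A/A and 5.98% in S/S, and 14.3% and 13.7% in the TNF pair. By type its share ran from 9.86% to 32.4% in A/A and from 4.91% to 14.4% in S/S, and it was lower in S/S in all 9 types. Cytosolic ribosomal protein genes took 12.8% of A/A and 18.4% of S/S UMIs and were higher in S/S in all 9 types, from 2.15% and 2.77% in neutrophils to 14.2% and 22.9% in B cells. Mitochondrial genes took 3.00% and 3.65%. Globin, Rn18s-rs5 and mitochondrial UMIs were kept out of the scaling total.

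**Figure D2:**
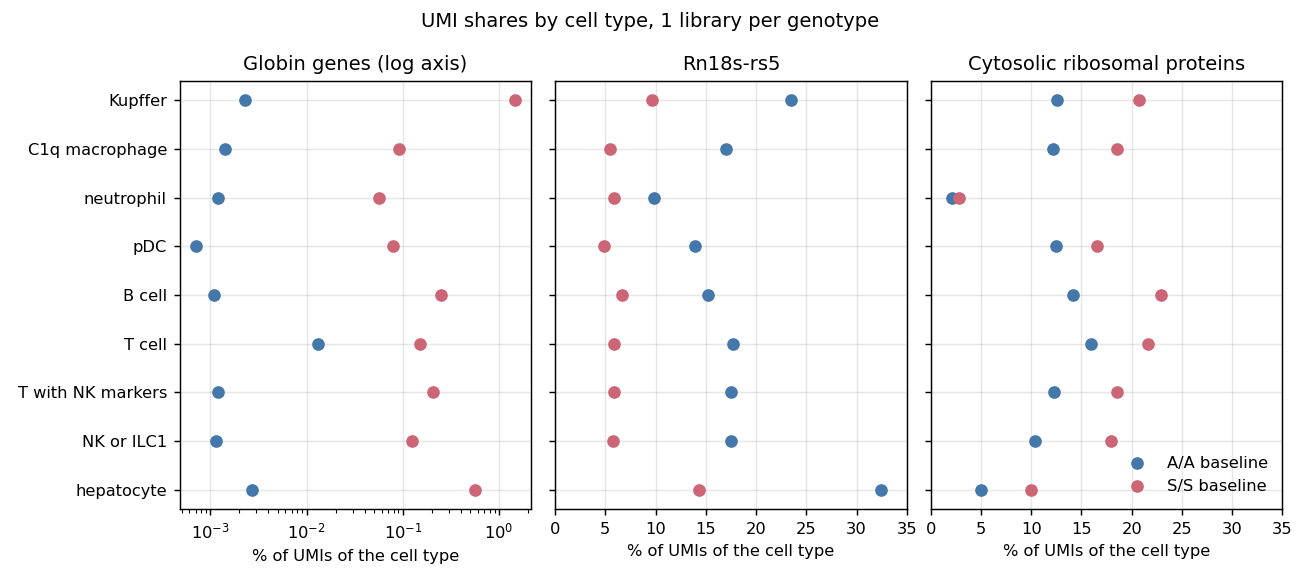
Globin, Rn18s-rs5 and cytosolic ribosomal protein genes as a percent of all UMIs in each of the 9 compared cell types, A/A and S/S baseline libraries, 1 value per type and library, with the globin axis logarithmic. In each of the 9 types globin and ribosomal protein shares are higher, and Rn18s-rs5 shares lower, in S/S than in A/A.

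To find genes that differed in single types or in many, the log2 ratio of S/S over A/A was taken per gene and type with a pseudocount of 1 CPM, for genes whose UMIs in both libraries summed to 20 or more. A gene over 2-fold apart is called higher or lower below. No test stands behind these calls. Over the 9 types, 3947 of 71407 gene and type values were higher in S/S (5.53%) and 5167 lower (7.24%). The split depended on the scaling: 5556 higher and 3399 lower with all UMIs in the total, and 4815 and 4025 after centring each type on its median. Medians over all genes ran from -0.20 to 0.02 by type, and from -0.03 to 0.30 with all UMIs in the total.

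Kupffer cells had 326 genes higher (6.3% of 5174) and 884 lower (17.1%), and C1q macrophages 590 higher (7.88% of 7490) and 1181 lower (15.8%). Hepatocytes had 374 higher (9.08% of 4120) and 618 lower (15%). Neutrophils went the other way, with 495 higher (9.61% of 5150) and 242 lower (4.7%), as did T cells, with 658 higher (5.48% of 12004) and 433 lower (3.61%). B cells had 389 (3.46% of 11251) and 396 (3.52%), and plasmacytoid dendritic cells, the deepest of the compared types, 185 (1.85% of 9980) and 281 (2.82%). T cells with NK markers had 506 (6.3% of 8027) and 533 (6.64%), and NK or type 1 innate lymphoid cells 424 (5.16% of 8211) and 599 (7.3%).

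Few genes moved the same way in most types. A gene was called shared if it passed 2-fold the same way in at least 5 types and in 50% or more of those where it was measured, and the other way in none. This held for 44 genes higher in S/S (0.551% of 7981 genes) and 26 lower (0.326%). In the TNF pair the same rule gave 16 higher (0.205% of 7804) and 4 lower (0.0513%). Of the 44 genes, 37 were measured in at least 5 types of the TNF pair, and 10 of these had a median there over 2-fold higher and 2 over 2-fold lower. Of the 26 lower genes, 20 were so measured and 0 had a TNF median past 2-fold either way.

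Red cell transcripts led the higher genes. Hbb-bt, an adult beta globin gene, was higher in 9 of 9 types with a median log2 ratio of 7.16, and Hba-a1 in 9 of 9 with 6.05. Their medians in the TNF pair were 5.90 and 5.45. Bpgm, which makes the red cell metabolite that lowers the oxygen affinity of hemoglobin, was higher in 7 of 8 types (median 1.47), and Car2, a carbonic anhydrase, in 5 of 7 (2.18, with types at 0 UMIs set at a floor of 3 UMIs). H1f5, a linker histone, was higher in 7 of 9 types (median 2.38) and had a TNF median of 3.25. In the list of red cell genes other than globin, 35 of 68 measured values were higher (51.5%, against 5.53% over all genes) and 0 lower. With barcodes of over 10 globin UMIs left out, a choice made after the values were seen, 21 values remained higher. Erythroid gate markers summed to 0 to 79.5 CPM by type in A/A and 19.5 to 234 CPM in S/S.

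Other shared genes belong to other cell types. Lyz2, the lysozyme of myeloid cells, had 1986 and 15170 UMIs in C1q macrophages (4414 and 12716 CPM) and 398 and 1682 in neutrophils (767 and 2979 CPM). It was higher in 8 of 9 types, B and T cells among them, with a median of 1.96. Kupffer cells were the exception, with 1439 and 960 UMIs (log2 -0.06). S100a9, a subunit of neutrophil calprotectin, was higher in 8 of 9 types (median 1.56). Its B cell counts were 30 and 140 UMIs, against 12096 and 31708 in neutrophils. Its partner S100a8 had a median of 1.53 over 8 types, which came to 0.34 when barcodes that passed several gates were assigned. TNF medians were 0.29 for Lyz2, -0.49 for S100a9 and -0.31 for S100a8. Both the lymphocytes, where counts were low, and the neutrophils that make these 2 proteins had higher values in S/S. The part of free RNA in these calls was not tested.

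Cytotoxic lymphocyte genes showed a similar spread. Gzma, a killer cell protease, had 623 UMIs in A/A and 10091 in S/S T cells (162 and 1875 CPM, log2 3.53, 3.42 to 3.65). In T cells with NK markers it had 957 and 5355 UMIs (log2 1.73), and in NK or type 1 innate lymphoid cells 3715 and 10966 (log2 0.63). It was also higher in B cells, with 13 and 126 UMIs, and in 8 of 9 types in all. Ccl5, a chemokine that draws T cells and macrophages, had 8912 and 50785 UMIs in T cells (2316 and 9438 CPM, log2 2.03) and 21 and 177 in Kupffer cells (log2 3.56). Its TNF median was -1.0.

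**Figure D3:**
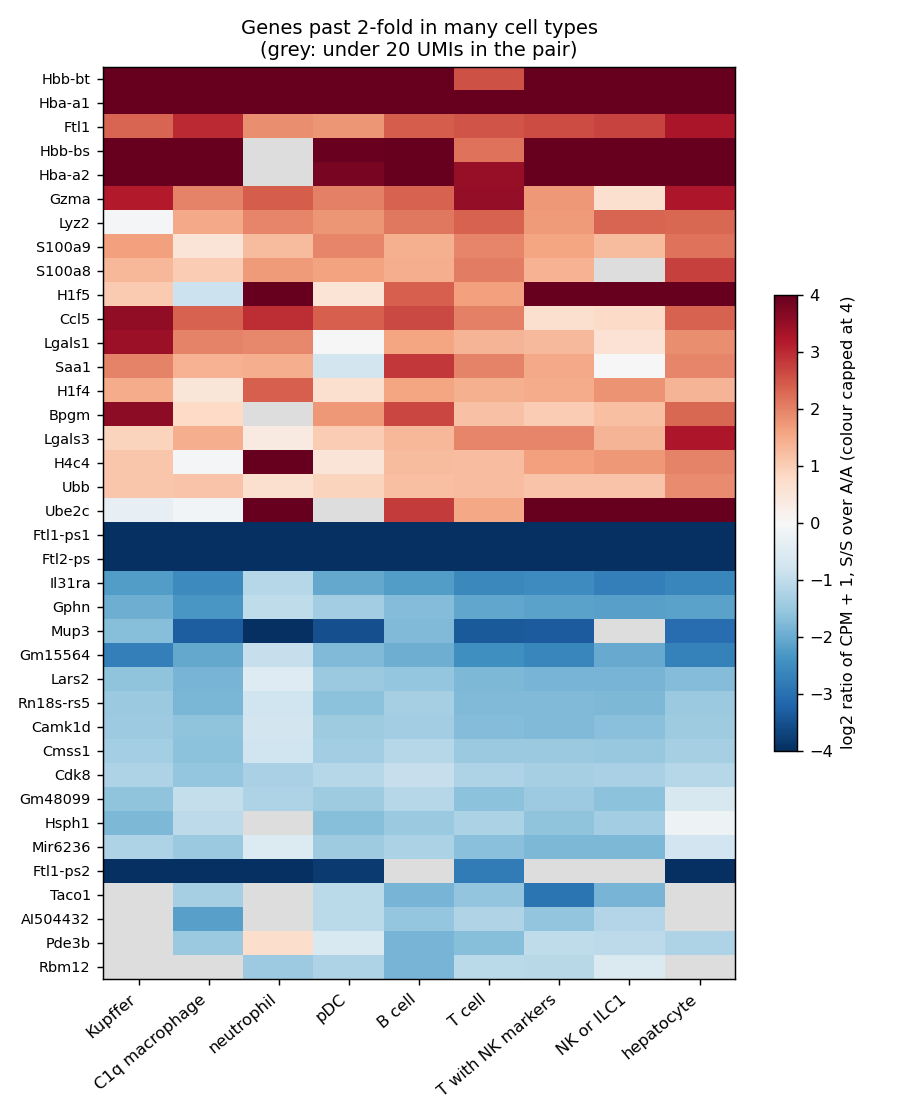
Log2 ratio of S/S over A/A (CPM plus 1) in each of the 9 cell types, as colour capped at 4, for genes past 2-fold in most types, with grey where a gene had under 20 UMIs in the pair. Hbb-bt and Hba-a1 are higher, and Ftl1-ps1, Ftl2-ps, Il31ra and Gphn lower, in 9 of 9 types.

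The lower genes were led by copies of the ferritin light chain, and here the gene's own value cannot be read alone. Ftl1 encodes the light chain of the iron store, on chromosome 7 of GRCm38. Ftl1-ps1 on chromosome 13, Ftl2-ps on chromosome 4 and Ftl1-ps2 on chromosome 10 are near copies. Over the 552 coding bases of Ftl1, Ftl1-ps1 differs at 2 (99.6% identical) and Ftl2-ps at 7 (98.7%), while Ftl1-ps2 differs at 12 of 549 aligned bases (97.8%). The last 120 coding bases are shown because they hold both differences of Ftl1-ps1. Capitals mark the positions at which any of the copies differs. They were read from the GRCm38 transcripts, and Ftl2-ps has the same letters as Ftl1-ps1 there.
Ftl1: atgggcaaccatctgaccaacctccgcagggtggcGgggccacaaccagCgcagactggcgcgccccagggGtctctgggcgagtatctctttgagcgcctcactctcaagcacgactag
Ftl1-ps1: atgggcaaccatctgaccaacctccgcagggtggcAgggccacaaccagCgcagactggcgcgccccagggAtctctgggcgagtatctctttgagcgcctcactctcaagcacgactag

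In Kupffer cells Ftl1 had 2510 UMIs in A/A and 8789 in S/S (4611 and 23134 CPM). Ftl1-ps1 had 5247 and 18 UMIs, and Ftl2-ps had 521 and 0. The same exchange was seen in every type: Ftl1 took 22.9% to 35.3% of the family's A/A UMIs and 99.5% to 99.9% of its S/S UMIs. In both TNF libraries it took 97.9% to 99.5%. So Ftl1 was higher in 9 of 9 types (median 2.52) and Ftl1-ps1 lower in 9 of 9 (median -6.86), with TNF medians of 0.37 and -0.24. Reads that were given to none of the 4 genes are not in the counts, and whether their number differed between the libraries is not known. With that limit, the sum of the 4 genes does not change when a counted UMI moves from 1 of them to another. Its log2 ratio was 0.26 to 1.52 by type, against 1.76 to 3.27 for Ftl1 alone. It was largest in hepatocytes, at 5946 and 17030 CPM (1.52, 1.45 to 1.58), and 0.87 in C1q macrophages and 0.59 in Kupffer cells (15380 and 23181 CPM). The sum stayed under 2-fold in the other 8 types. Fth1, the heavy chain, had 10926 and 20833 CPM in Kupffer cells (log2 0.93) and 5950 and 13480 CPM in C1q macrophages (1.18).

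**Figure D4:**
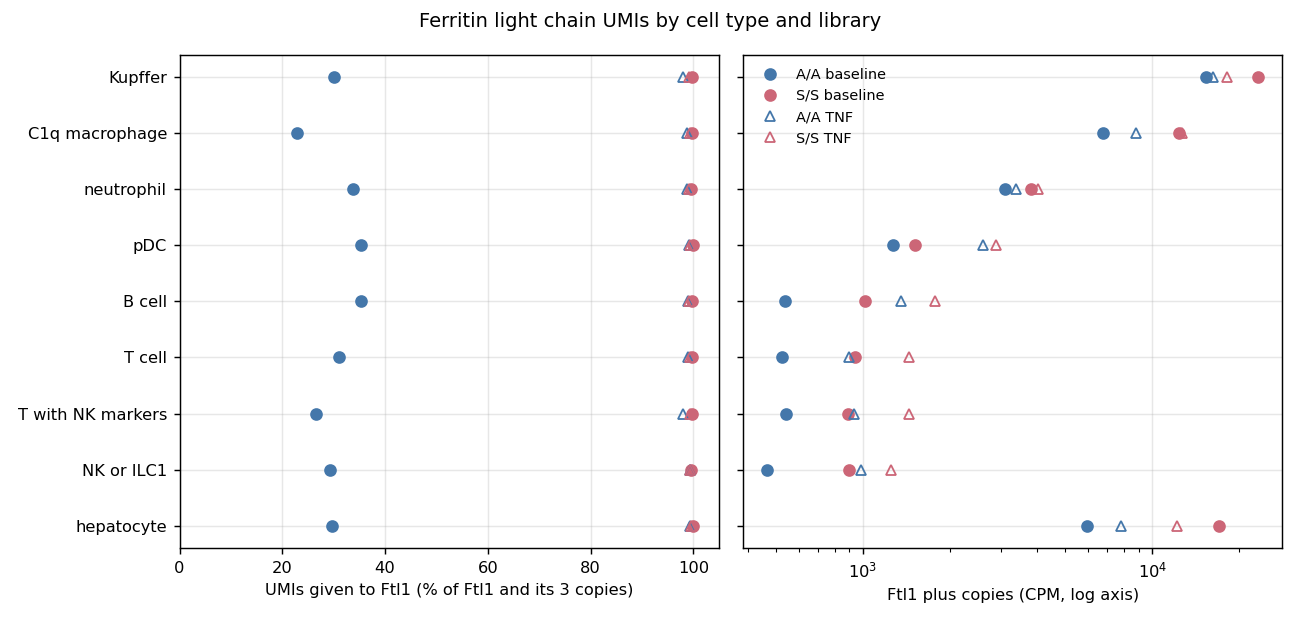
Left, the percent of UMIs of Ftl1 and its 3 copies that were given to Ftl1, and right, the summed CPM of all 4 genes on a log axis, in each of the 9 types, with filled circles for the baseline libraries and open triangles for the TNF libraries. The A/A baseline library alone stands at 22.9% to 35.3% on the left, while the other libraries are at 97.9% or more, and the sums of the baseline pair lie much closer together.

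Some transcripts of a list of nuclear and intron-rich RNAs were lower in most types, though not Malat1, whose levels are given above. Gphn, which encodes the scaffold protein gephyrin, had 13026 A/A and 4356 S/S UMIs in T cells (3385 and 810 CPM) and was lower in 9 of 9 types (median -2.06). Il31ra, a cytokine receptor subunit, was also lower in 9 of 9 (median -2.51). Lars2, a mitochondrial leucyl-tRNA synthetase, was lower in 8 of 9 (-1.74), as was Rn18s-rs5 (-1.65), and Camk1d and Cmss1 had medians of -1.45 and -1.38. Their TNF medians were -0.07 for Gphn, -0.12 for Lars2, -0.07 for Rn18s-rs5 and 0.24 for Camk1d. In the list of nuclear and intron-rich RNAs, which holds several of these genes, 56 of 111 values were lower (50.5%, against 7.24% over all genes) and 4 higher, 3 of them among the 10 measured in Kupffer cells. Most of the lower values came from Il31ra and Gphn, lower in 9 of 9 types, and Lars2, Camk1d, Cmss1 and Cdk8, lower in 8 of 9. Among classes of 10 or more barcodes, all of these genes had their highest A/A level in the 14 erythroid barcodes, as did Rn18s-rs5. Cmss1 stood there at 79548 CPM and Gphn at 13819 CPM. Whether the calls of these genes are separate from that of Rn18s-rs5 was not tested. The list is therefore not read as a fall of nuclear RNA in general. Its median was below 0 in all 9 types (-1.62 to -0.39). Cytosolic ribosomal protein genes had medians of 0.27 to 0.69, above 0 in all 9. Their movement together with the Rn18s-rs5 share was measured over the same 2 libraries, and its source was not tested.

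Heat shock genes encode chaperones that refold proteins, and some were lower in 7 of the 9 types. Neutrophils and hepatocytes had 0 lower, with list medians of 0.22 and 0.30. Of 111 measured values 24 were lower (21.6%, against 7.24% over all genes) and 2 higher. Hsph1, a co-chaperone of the Hsp70 family, had 642 and 371 UMIs in T cells (167 and 68.9 CPM, log2 -1.26, -1.46 to -1.09), 322 and 187 in B cells (-1.47) and 219 and 58 in plasmacytoid dendritic cells (-1.72). In hepatocytes it had 30 and 15 UMIs (log2 -0.21). It was lower in 7 of 8 types and had a TNF median of -0.36. Hspa1b, an inducible Hsp70, had 24 and 0 UMIs in Kupffer cells. C1q macrophages went the other way, with 8 and 47 UMIs (log2 1.10). In the TNF pair Hspa1b was higher in S/S, with a median of 3.82 over 6 types, and so was its twin Hspa1a (3.52). Dnajb1, an Hsp40, was lower in 5 of 8 types (median -1.08), with a TNF median of 0.20.

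Interferon-stimulated genes, a set switched on by type I interferon, split by cell type. Isg15, a ubiquitin-like modifier, had 52 and 533 UMIs in C1q macrophages (116 and 447 CPM, log2 1.94, 1.54 to 2.39), 202 and 758 in T cells (1.41) and 9 and 94 in NK or type 1 innate lymphoid cells (2.37). T cells with NK markers had 36 and 36 UMIs (log2 -0.74). Rsad2, which encodes the antiviral enzyme viperin, had 5 and 131 UMIs in T cells (log2 3.46, 2.97 to 5.87). TNF medians were -0.15 for Isg15 and 1.28 for Rsad2. S/S erythroid barcodes held more of both genes than any of the 9 compared types. Isg15 stood at 6059 CPM in them, against at most 447 in the 9 types, and Rsad2 at 4791, against at most 177. The part of free RNA in these values was not tested. Over the list, 46 of 291 values were higher (15.8%, against 5.53% of all) and 20 lower (6.87%, against 7.24%). NK or type 1 innate lymphoid cells had 13 of 36 higher and 0 lower, where 5.16% and 7.3% of all genes were. C1q macrophages, where these shares were 7.88% and 15.8%, had 10 of 40 higher and 1 lower, with Irf7 at 1.46. Kupffer cells had 1 of 35 higher and 9 lower, in a type where 6.3% of all genes were higher and 17.1% lower. Ifih1, a sensor of viral RNA, had 42 and 5 UMIs there (-2.46). T cells with NK markers had 0 of 30 higher and 6 lower, where 6.3% and 6.64% of all genes were.

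The promoters of 4 of these genes are given because each holds a match to the element its factor family is known to bind. They are RefSeq sequences on GRCm38.p6, the 150 bases before the start of the gene, all read on the minus strand. Capitals mark the match.
Hsph1 (chr5:149636337-149636486): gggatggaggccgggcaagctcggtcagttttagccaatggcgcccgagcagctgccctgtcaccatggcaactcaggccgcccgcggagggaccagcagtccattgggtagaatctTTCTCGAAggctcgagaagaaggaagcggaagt
Hspa1b (chr17:34959239-34959388): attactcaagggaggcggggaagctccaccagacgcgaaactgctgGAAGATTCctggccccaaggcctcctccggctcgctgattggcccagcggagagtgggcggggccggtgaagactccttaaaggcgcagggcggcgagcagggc
Isg15 (chr4:156200819-156200968): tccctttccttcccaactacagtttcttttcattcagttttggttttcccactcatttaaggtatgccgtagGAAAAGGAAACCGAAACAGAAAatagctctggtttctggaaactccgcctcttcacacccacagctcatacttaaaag
Rsad2 (chr12:26456453-26456602): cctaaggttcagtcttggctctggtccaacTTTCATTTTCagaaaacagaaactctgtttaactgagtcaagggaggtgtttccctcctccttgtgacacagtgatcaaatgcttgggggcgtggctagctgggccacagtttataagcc
The heat shock motif searched was GAANNTTC or TTCNNGAA, on both strands within 250 bases before the start. It was found in 8 of the 13 listed heat shock genes with a promoter in the table (61.5%) and in 3932 of the 27025 genes searched (14.5%). The interferon motif was GAAA followed after any 2 bases by GAAA, or TTTC so followed by TTTC. This motif was found in 21 of 32 listed genes (65.6%) and in 936 of the 27025 genes searched (3.46%). Its 3 matches overlap in Isg15. A match describes letters and does not show binding.

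Hmox1, Slc40a1 and Cd163 were compared in the macrophage classes. Hmox1 had 835 and 883 UMIs in Kupffer cells (1534 and 2324 CPM, log2 0.60, 0.46 to 0.74). In C1q macrophages it had 115 and 1418 (256 and 1189 CPM, log2 2.21, 1.94 to 2.50), and the S/S C1q level was still below the A/A Kupffer level. Slc40a1, the iron exporter, had 960 and 250 UMIs in Kupffer cells (1763 and 658 CPM, log2 -1.42, -1.63 to -1.22) and 99 and 201 in C1q macrophages (-0.38). Cd163, the receptor for hemoglobin bound to haptoglobin, had 139 and 10 UMIs in Kupffer cells (255 and 26.3 CPM, log2 -3.23, -4.37 to -2.36). Spic, a factor of iron-recycling macrophages, had 19 and 150 UMIs in C1q macrophages (1.55) and 64 and 60 in Kupffer cells (0.42, -0.11 to 0.96). Of the heme and iron list, 5 of 19 measured genes were higher and 0 lower in C1q macrophages, where 7.88% and 15.8% of all genes were. In Kupffer cells 2 of 18 were higher and 4 lower, near the shares of all genes there (6.3% and 17.1%). Ftl1 is among the higher genes in both types. Its sum with the near copies stayed under 2-fold, at log2 0.87 in C1q macrophages and 0.59 in Kupffer cells. Hmox1 was also higher in T cells, at 25 and 218 UMIs (2.47), and it counted as shared, in 6 of 8 types, with a TNF median of 0.13.

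Kupffer cells also differed in complement and early response genes, against 17.1% of all their genes lower and 6.3% higher. C6 and C4b, complement components, had 171 and 23 UMIs (log2 -2.36) and 109 and 10 (-2.88). Of 13 measured complement genes 6 were lower and 1 higher, and the gate marker Vsig4 is among the lower ones. Immediate early genes were lower in 7 of 15 and higher in 0, among them Fos with 55 and 9 UMIs (-2.05). Cxcl13, a B cell chemokine, had 82 and 4 UMIs (-3.72, -5.75 to -2.43), and Gbp2b, an interferon-induced GTPase, 108 and 1 (-5.78, -11.55 to -3.73). Rgl1 and App, lower by log2 -1.72 and -1.50, were among 14 genes past 2-fold in Kupffer cells and under a log2 of 0.58 either way in each of at least 4 other types. Gate markers are part of the rule and are given as levels alone: Clec4f had 3538 and 1187 CPM, Vsig4 2245 and 1021, Cd5l 2746 and 3153 and Marco 827 and 2227. In the same barcodes hepatocyte markers summed to 1187 and 798 CPM and endothelial markers to 279 and 57.9 CPM, while classical monocyte markers summed to 40.4 and 174 CPM and erythroid markers to 3.67 and 234 CPM. The median mitochondrial share was 1.92% and 4.13%. Their part in these values was not tested.

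C1q macrophages of S/S liver carried more monocyte and Kupffer marker RNA. Classical monocyte markers summed to 760 CPM in A/A and 3211 in S/S, and Kupffer markers to 487 and 1163. Beside this, Hp, haptoglobin, had 12 and 317 UMIs (log2 3.27, 2.49 to 4.28), Ccl2, a monocyte chemokine, 15 and 195 (2.26) and Ier3, an early response gene, 4 and 107 (3.20). Gsr, glutathione reductase, had 27 and 379 UMIs (2.38), which came to 0.98 when barcodes of several gates were assigned. Spon1, an extracellular matrix protein, and F10, coagulation factor X, had 0 UMIs in A/A and 146 and 106 in S/S, at least 18.4-fold and 13.3-fold higher. Cd83, a marker of activated antigen-presenting cells, had 106 and 22 UMIs (-3.60) and the semaphorin receptor Plxna4 128 and 2 (-6.74). H2-Aa and Cd74, of the MHC class II pathway, were under 2-fold lower, at -0.77 and -0.89. NF-kB response genes were lower in 9 of 29 and higher in 3, and dividing-cell genes lower in 12 of 18 and higher in 0, where 15.8% of all genes in this type were lower and 7.88% higher.

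Granule genes of neutrophils were far higher in S/S and rested on few barcodes. Ngp had 2 UMIs in A/A and 4183 in S/S, and Camp, the cathelicidin, 2 and 3954, but 1 S/S barcode held 1688 of the Ngp UMIs. Ngp was present in 2 of 116 A/A and 14 of 126 S/S barcodes and Ltf, lactoferrin, in 1 and 11. These 3 are gate markers and are given as levels. Chil3, which early granulocytes and monocytes make, had 1 and 904 UMIs (log2 9.10, 7.22 to 15), in 1 and 9 barcodes, and 1 of these held 554. Lcn2, the iron-chelating lipocalin, was spread more widely, with 88 and 1755 UMIs (4.19, 3.89 to 4.52) in 26 and 58 barcodes. Cebpe, a factor of granule gene expression, had 6 and 58 UMIs in 6 and 16 barcodes. After thinning each barcode to 2000 UMIs, which left 112 and 118 barcodes, Lcn2 was detected in 15.2% and 39.0%. S100a8 stood at 13498 and 43740 CPM (1.70), but it was detected in 92.2% of A/A and 84.1% of S/S barcodes. A single S/S barcode held 6045 of its 24694 S/S UMIs. S100a9 was detected in 95.7% and 87.3%. Cxcl2, a neutrophil chemokine, had 19 and 207 UMIs (3.29). Classical monocyte markers, of which Chil3 is 1, summed to 17 and 1068 UMIs in these barcodes. Whether the share of S/S cells still maturing or their RNA per cell differed cannot be told apart from the sums.

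T cell barcodes differed in the detection of Cd8 genes as well as in other genes. Cd4, Cd8a and Cd8b1 are themselves T cell gate markers, so the shares below depend in part on the gate. Thinning came after gating and does not undo this, and the part of the gate was not tested. Barcodes with Cd8a or Cd8b1 but no Cd4 UMI were 20.9% of A/A and 44.0% of S/S T cells, and 18.9% and 40.9% after thinning to 3000 UMIs. Barcodes with Cd4 alone were 39.8% and 30.5%, and 18.9% and 19.9% after thinning, so no direction is read for them. Zbtb16, a transcription factor of innate-like T cells, had 1506 and 318 UMIs (log2 -2.71, -2.91 to -2.55) and the cytokine gene Il4 357 and 67 (-2.80). Nr4a3, induced by antigen receptor signals, had 277 and 35 (-3.28). Havcr2, which encodes the inhibitory receptor Tim-3, had 4 and 175 UMIs (4.04, 3.58 to 6.86), Cx3cr1, a receptor of effector cells, 34 and 202 (1.97) and the NK receptor Klra7 30 and 241 (2.38). Of 15 NK receptor genes measured in T cells, 3 were higher and 2 lower, where 5.48% and 3.61% of all genes were. In T cells with NK markers, Il4 had 38 and 0 UMIs (log2 of -4.42 or lower, with the 0 set at the floor of 3 UMIs), and the gut and liver homing receptor Cxcr6 310 and 242 (-1.11).

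NK or type 1 innate lymphoid barcodes had less of 2 genes that mark the innate lymphoid side. Itga1, the CD49a integrin of liver-resident cells, had 99 and 26 UMIs (log2 -2.80, -3.54 to -2.23) and Tnfsf10, the death ligand TRAIL, 88 and 44 (-1.90). Ly49 receptor genes moved unequally: Klra5 had 96 and 36 UMIs (-2.31), Klra1 23 and 205 (2.19) and Klra7 170 and 945 (1.54). These genes are close paralogs, and how reads were divided between them is uncertain.

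Genes of dividing cells were higher in S/S lymphocytes, with most of their UMIs in few barcodes. The cell cycle list had 13 of 23 measured genes higher in T cells, 15 of 22 in T cells with NK markers, 14 of 22 in NK or type 1 innate lymphoid cells and 11 of 22 in B cells. All 8 of 8 in hepatocytes and 9 of 11 in neutrophils were higher too. Of all genes, 3.46% (B cells) to 9.61% (neutrophils) were higher in these types. Over all types 72 of 153 values of the list were higher (47.1%, against 5.53% over all genes) and 15 lower (9.80%, against 7.24%). Mki67, the usual marker of cycling cells, had 4 and 146 UMIs in NK or type 1 innate lymphoid cells (4.06), but 1 S/S barcode held 48.6% of the S/S UMIs. Erythroid precursors also divide, so whole barcodes were counted: those with at least 3 of 11 cycle genes were 9 of 374 (2.41%) in A/A and 41 of 721 (5.69%, 4.11 to 7.64) in S/S T cells. In NK or type 1 innate lymphoid cells they were 0 of 76, with an exact upper bound of 4.74%, and 8 of 155 (5.16%, 2.25 to 9.92). These 8 S/S barcodes held 89.1% of the S/S UMIs of the 11 genes in this type. In B cells the counts were 0 of 392 and 7 of 825 (0.848%), and these 7 held 64.2%. After thinning to 2000 UMIs the T cell shares were 0.81% and 2.51%. C1q macrophages had 10 such barcodes in each library, 8.00% and 3.34%, or 7.23% and 5.26% after thinning.

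B cells and plasmacytoid dendritic cells had the smallest shares of genes past 2-fold. In B cells Id3, an inhibitor of differentiation factors, had 162 and 938 UMIs (log2 1.81, 1.58 to 2.07) and Cxcr4, the marrow homing receptor, 1219 and 480 (-2.05, -2.21 to -1.90). Acss1, an acetyl-CoA synthetase, was lower in B cells (-1.23) and within a log2 of 0.58 in the 5 other types where it was measured. In plasmacytoid dendritic cells the chemokine Ccl4 had 1167 and 86 UMIs, but 83.8% of the A/A UMIs lay in 1 barcode, and for Ccl3 (199 and 8) the share was 92.5%. Fnip2 had 149 and 29 UMIs there (-2.12, -2.82 to -1.61). Isg15 was higher (37 and 120 UMIs, 1.81), and Alb, a hepatocyte gene, was lower (164 and 33 UMIs), beside hepatocyte markers at 243 and 116 CPM.

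Of 29 secreted protein genes measured in hepatocyte barcodes, several of them gate markers such as Alb, 2 were higher and 5 lower, with a median of -0.13. Over all genes of this type 9.08% were higher and 15% lower. Metallothioneins, which bind zinc and copper, were among the highest: Mt1 had 36 and 1097 UMIs (66.5 and 3493 CPM, log2 5.69, 5.24 to 6.24) and Mt2 6 and 224 (5.88). The serum amyloids Saa1 and Saa2 had 1852 and 4142 UMIs (3423 and 13190 CPM, 1.95) and 690 and 2365 (2.56). Hp had 1309 and 1100 UMIs (0.53). Major urinary proteins, the pheromone carriers of male mice, were lower: Mup3 had 8960 and 629 UMIs (16560 and 2003 CPM, -3.05, -3.17 to -2.93), Mup20 2993 and 108 (-4.0) and Mup7 837 and 14 (-5.09). Mup genes are near copies, so single values are uncertain, though these 3 had the same sign. Apob, of very low density lipoprotein, had 444 and 62 UMIs (-2.05), Serpina3k 3105 and 556 (-1.70), Acsl1, which activates fatty acids, 201 and 18 (-2.68). Alb is a gate marker and stood at 26160 and 14830 CPM. Gsta1, a glutathione transferase, had 5 and 77 UMIs (4.59), and mitochondrial mt-Rnr1 was higher by 1.27, or by 0.94 with the stricter barcode filter. The S/S hepatocyte sum rested on 283 barcodes with a median of 1134 UMIs. Their median mitochondrial share was 3.68%, against 0.849% in A/A, and 7 of 14 mitochondrial transcripts were higher. The part of RNA quality in these values was not tested.

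**Figure D5:**
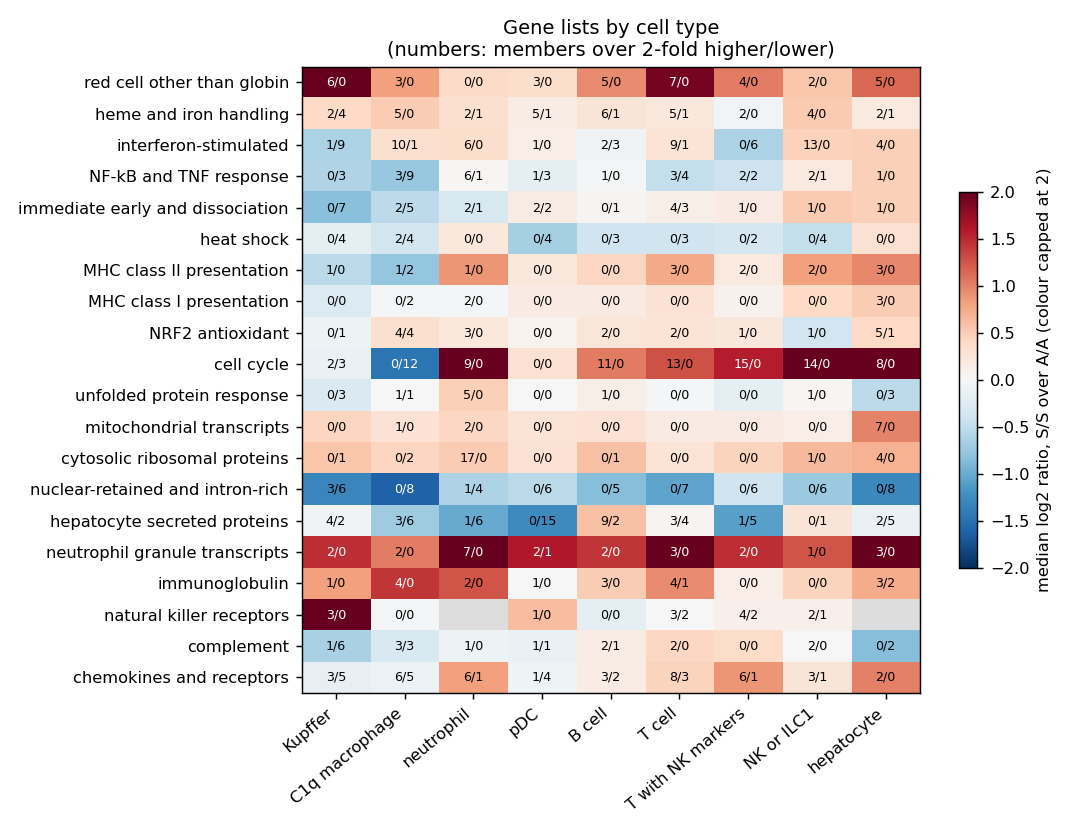
Gene lists (rows) in each of the 9 cell types (columns) of the baseline pair: colour is the median log2 ratio of S/S over A/A, capped at 2, and the printed pair of numbers counts members over 2-fold higher and lower. The median of the nuclear-retained and intron-rich list, in which a few genes gave most lower values, is below 0 in all 9 types. That of ribosomal proteins is above 0 in all 9, whereas the interferon-stimulated list runs from -0.63 to 0.47.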

How the data were processed

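The deposited values are raw UMI counts per gene and barcode from 10x 3' libraries, made by the authors with Cell Ranger 7.1.0 for both baseline libraries and 6.1.2 for both TNF libraries, against mm39, per the file headers and the submitters' processing notes. Whether intronic reads were counted is not given in the sources used here. Kept barcodes had 300 genes or more and no more than 20% mitochondrial UMIs. Most gates asked for 3 distinct markers and 5 marker UMIs, the hepatocyte gate for 4 markers and 1% of UMIs. Gate thresholds were set after the files were seen, and members and gene lists were chosen with earlier results of these data known. UMIs were summed by type and library and compared as described, with Python 3.11.15, numpy 2.4.6, scipy 1.17.1 and pandas 2.3.3. The scripts were tested on simulated data. Intervals are exact (Clopper-Pearson) and cover counting error only, and depth per library is given with the data. Alternatives were a stricter filter and gate, assigned multi-gate barcodes, other scalings, a pseudocount of 10, a minimum of 100 UMIs, thinning and leaving out single barcodes. Genes were named by rule: those shared by most types, up to 4 each way past 2-fold in 1 type only, the 3 highest and lowest per type and up to 4 per list. Others named were chosen after their values were seen. Chromosomes and coding sequences come from GRCm38, used for names and sequence only. Types with under 50 barcodes in either library were not compared gene by gene. Values of a few genes that the counts include are not reported here.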

Additional observations from a re-analysis of the deposited data

Results flagged for a closer look

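Jchain and Igkc had medians of opposite sign in the baseline and TNF pairs. Jchain, the joining chain of secreted antibodies, had a median log2 ratio over types of 1.09 at baseline and -1.18 after TNF. Igkc, the kappa constant region, had 1.06 and -1.34. Other antibody genes need not follow: Ighg2b had -1.12 and -0.67. The difference between the pairs was not tested, and each pair is 1 library per genotype.

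Globin RNA also stood out in barcodes outside the comparison. In baseline barcodes that passed no gate it took 5.81% of UMIs in S/S and 0.002% in A/A. In barcodes under the filter it took 37.5% of UMIs in S/S, from 617 barcodes, and 3.64% in A/A, from 400.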

How the results depend on the processing

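No paired analysis was possible because each genotype had 1 library. Ratios of shares (S/S over A/A) moved by more than their counting interval in these cases: with a filter of 500 genes and 10% mitochondrial UMIs, 0.343 for Kupffer cells and 0.347 for hepatocytes; with the stricter gate, 0.295 for Kupffer cells, 1.24 for C1q macrophages and 0.515 for neutrophils; with barcodes thinned to 1000 UMIs, which leaves out shallow ones (296 in A/A and 457 in S/S), 0.329 for hepatocytes. None of them crossed 1. Globin shares were 0.129% in A/A and 1.29% in S/S under the stricter filter, and 0.224% and 4.0% after thinning. Rn18s-rs5 shares were 16.8% and 5.73%, and 19.2% and 7.03%.

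Fewer calls follow by construction from a pseudocount of 10, a minimum of 100 UMIs or thinning. In that order, the summed higher counts were 1764, 942 and 1781, the lower counts 2686, 1401 and 2579, the shared higher genes 25, 14 and 9, and the shared lower genes 17, 14 and 14. With a minimum of 100 UMIs and after thinning, values past 2-fold were 27 and 12 for cell cycle, 12 and 10 for heat shock, 20 and 21 for interferon, 11 and 8 for red cell genes, 9 and 8 for hepatocyte secreted genes (26 with the pseudocount of 10) and 24 and 23 for chemokines (38 in the main count). Scaling to all UMIs gave 3399 lower calls and 17 shared lower genes. Assigning barcodes of several gates gave 43 shared lower genes, 58 red cell values and 77 hepatocyte secreted values past 2-fold, against 46; the cause was not tested. Leaving out barcodes of over 10 globin UMIs, an alternative chosen after seeing the data, gave 21 red cell values. Bbln in hepatocytes turned from 1.32 to -0.081 after thinning, the 1 reversal among the genes named by rule. Of 121 values of such genes, 108 stayed past 2-fold with a pseudocount of 10 and 119 without the richest barcode of the gene. Hepatocyte and Kupffer barcodes had the lowest median UMIs of the 9 types in both libraries, which limits what single barcodes show.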

Other observations

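Galectins, a family of sugar-binding proteins, were among the shared higher genes that the report did not describe. Lgals1 had a median log2 ratio over types of 1.56 and Lgals3 of 1.37. Ubb, a polyubiquitin gene, was higher in 7 of 9 types (median 1.15), and the cold-induced RNA-binding protein gene Rbm3 had a median of 1.07. Of the 44 shared higher genes, 10 lie on chromosome 7, which holds 7.09% of the genes tested and also the beta globin cluster. These 10 include the beta globin genes Hbb-bt and Hbb-bs themselves, and Ftl1, whose value cannot be read alone. The genes within 5 Mb of either globin cluster were past 2-fold higher in 21 of 621 values (3.38%, against 5.53% over all genes). They were lower in 41 (6.60%, against 7.24%).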
